A study of Mus musculus with 16 samples.

Results

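The genes described here were 10 markers of the intestinal crypt that are tied to stem cells and to Wnt signalling, namely Lgr5, Ascl2, Olfm4, Smoc2, Tnfrsf19, Axin2, Rnf43, Znrf3, Sox9 and Ephb2. The rule took them by name, with no threshold on a measured value, from the 41740 gene names listed for each mouse. All 10 had counts in every library and passed the filter on low counts that left 15267 genes for testing. Total RNA of the ileal whole wall of male STAM mice was sequenced, a model of diabetes with fatty liver disease that is made by streptozotocin on day 2 of life and high-fat diet from week 4. All 3 groups carried the floxed insulin receptor gene (InsR-flox) and received both streptozotocin and the diet, and by the study's methods this experiment ran to 20 weeks of age. The groups were Villin-Cre-negative mice without insulin (Control-STAM-nonINS, n = 4), Villin-Cre-negative mice given insulin from week 6 (Control-STAM-INS, n = 6) and insulin-treated mice labelled as carrying Villin-Cre (ieIRKO-STAM-INS, n = 6). By the study's methods, the control mice in this experiment received saline.

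Villin-Cre acts in the intestinal epithelium, whereas the whole wall also holds muscle, stroma and immune cells, so the deletion is not expected in all cells of these samples. Between 13288018 and 22215382 reads were counted on genes per library. Insr, the floxed gene, was measured at 62.7 CPM (read counts per library of a standard size, after TMM normalization), with a range of 49.9 to 76.1, in Control-STAM-INS and at 67.2 CPM, with a range of 57.5 to 90.5, over the 6 libraries labelled as the knockout. The level of the whole gene did not separate the labelled knockout from its control, since Insr differed by 0.10 on the log2 scale (standard error, SE, 0.13, adjusted p = 0.805, edgeR). In Control-STAM-nonINS Insr was at 105 CPM, with a range of 88.3 to 115.8, above every Control-STAM-INS library (log2 fold change with insulin -0.75, adjusted p = 0.00275, edgeR). The labelled knockout was also lower than Control-STAM-nonINS, by 0.65 on the log2 scale (adjusted p = 0.00582, edgeR), a call lost without the 3 libraries lowest in epithelial genes. The counts cover the whole gene in all cells of the wall and not the deleted part in the epithelium, so they do not settle whether the labels hold. The study measured InsR in the ileum by real-time PCR, which is not analysed here. The libraries labelled so did stand apart from Control-STAM-INS in Lyz1 and Ang4, as given below with the Paneth cell genes. The 4 genes of ileal enterocytes measured as a check of the tissue summed to 5382 to 11560 CPM over the 16 libraries, and the 2 genes of duodenal and jejunal epithelium to 1.36 to 5.88 CPM. The summed level of 7 genes shared by all epithelial cells lay between 12990 and 15260 CPM in 13 libraries and was lower in 3. Control-STAM-nonINS replicate 4 had 9235 CPM, and ieIRKO-STAM-INS replicates 2 and 5 had 11270 and 11330 CPM.

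The lining of the ileum is renewed by stem cells at the base of the crypts, which lie between Paneth cells. These stem cells depend on Wnt ligands, which stabilize beta-catenin and let it act with TCF/LEF factors on target genes, and on R-spondins, which strengthen the signal through LGR receptors. Some of the target genes switch the pathway off again, and their levels are widely used to read how active it is. Among the 10 genes, Lgr5, Ascl2, Olfm4, Smoc2 and Tnfrsf19 are known as markers of the crypt base stem cells. Axin2, Rnf43 and Znrf3 are feedback inhibitors that are themselves Wnt targets, and Sox9 and Ephb2 are Wnt targets that regulate crypt cells. Counts from the whole wall do not show which of its cells carried these RNAs.

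Promoter sequences were available for 6 of the 10 genes, in 8 windows of 300 bases that begin 250 bases before a transcription start in the RefSeq annotation of GRCm38.p6. No window was at hand for Lgr5, Smoc2, Znrf3 and Sox9. The TCF/LEF motif ATCAAAG, or CTTTGAT on the other strand, was found in 1 of the 8 windows, and 3.73% of all 32851 mouse windows of this length held it. The shorter core CAAAG, or CTTTG on the other strand, which lies within the longer motif, was also in 1 of the 8 windows and in 53.9% of all windows. The only match was in a Tnfrsf19 window at chr14:61037938-61038237 on the minus strand, where the motif starts at base 49. This window is shown with those of Ephb2, whose RNA was lower in the insulin-treated mice (chr4:136835963-136836262, minus strand), and of Axin2, a widely used readout of Wnt signalling (chr11:108920099-108920398, plus strand). The sequences are written from 5′ to 3′ on the strand of the gene, and capitals mark the motif.
Tnfrsf19: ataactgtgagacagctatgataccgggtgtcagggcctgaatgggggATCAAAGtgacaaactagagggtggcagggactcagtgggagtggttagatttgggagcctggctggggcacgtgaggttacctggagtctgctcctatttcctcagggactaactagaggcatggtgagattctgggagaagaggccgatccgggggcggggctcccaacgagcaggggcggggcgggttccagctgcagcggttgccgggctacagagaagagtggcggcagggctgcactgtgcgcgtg
Ephb2: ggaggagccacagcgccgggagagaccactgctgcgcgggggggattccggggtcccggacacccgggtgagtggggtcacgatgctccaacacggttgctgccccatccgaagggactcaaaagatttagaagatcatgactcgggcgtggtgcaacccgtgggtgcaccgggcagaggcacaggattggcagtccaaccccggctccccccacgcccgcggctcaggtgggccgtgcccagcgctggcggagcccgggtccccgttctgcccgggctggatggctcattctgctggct
Axin2: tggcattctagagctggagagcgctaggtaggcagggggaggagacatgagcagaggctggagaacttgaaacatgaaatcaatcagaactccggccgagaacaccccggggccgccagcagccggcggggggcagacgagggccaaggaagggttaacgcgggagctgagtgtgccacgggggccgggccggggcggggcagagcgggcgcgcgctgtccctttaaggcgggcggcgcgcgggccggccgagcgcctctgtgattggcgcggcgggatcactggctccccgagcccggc

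The 10 genes differed widely in level. Compared per kilobase of merged exons, the highest was Olfm4, which encodes a secreted glycoprotein of crypt base cells, with 140 CPM per kb as the mean of the 3 group means. Axin2, a scaffold of the complex that degrades beta-catenin, followed with 14.4 CPM per kb, and the libraries' ranges of these genes did not overlap. Smoc2, a matricellular protein gene, had 8.66 CPM per kb and Sox9, a transcription factor gene, had 6.18 CPM per kb. Axin2 was above Smoc2 in 15 of 16 libraries, and Smoc2 was above Sox9 in all 16.

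Rnf43, which encodes a ubiquitin ligase that removes Wnt receptors from the cell surface, had 3.87 CPM per kb. Ascl2, a transcription factor of crypt stem cells, had 3.67 and Ephb2, a receptor that positions cells along the crypt, had 3.36 CPM per kb. Neighbours among these 3 genes could not be put in order beyond their spread, since Rnf43 was above Ascl2 in 8 of 16 libraries and Ascl2 above Ephb2 in 10 of 16. Lower levels were found for Tnfrsf19, a TNF receptor family member also known as Troy, with 1.83 CPM per kb, and for Lgr5, the R-spondin receptor that defines the crypt base stem cell, with 1.47 CPM per kb. Znrf3, the close relative of Rnf43, was lowest with 1.06 CPM per kb. Tnfrsf19 exceeded Lgr5 in 14 of 16 libraries, and Lgr5 exceeded Znrf3 in all 16.

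**Figure D1:**
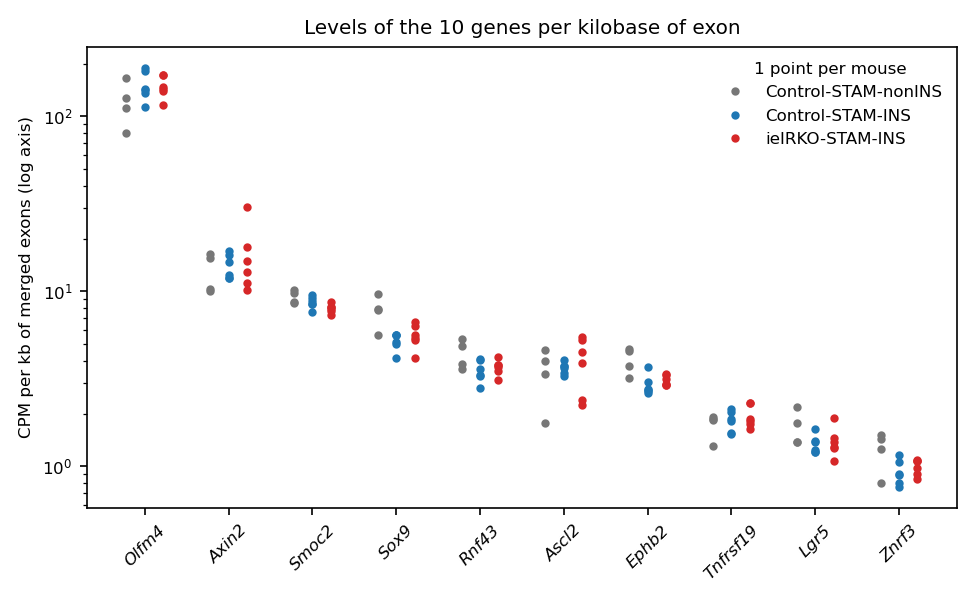
Level of each of the 10 genes in each of the 16 mice, in CPM per kb of merged exons on a log axis, coloured by group. The genes are ordered by their mean level, from Olfm4 at 140 CPM per kb to Znrf3 at 1.06 CPM per kb, and the points of Rnf43, Ascl2 and Ephb2 overlap.

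The comparison of insulin-treated with non-insulin-treated control mice addressed what insulin changes in the ileum of STAM mice. In it, 2 of the 10 genes fell and none rose at an adjusted p under 0.05 (edgeR's quasi-likelihood test, Benjamini-Hochberg adjustment over all genes tested). The genes were Sox9 and Ephb2, both regulators of crypt cells. Of all genes tested, 10.5% were called in this comparison and 6.76% were called lower, and a count of 2 among only 10 genes lies near that background. The number of genes called over all genes fell from 1602 to 824 without Control-STAM-nonINS replicate 1. The median log2 fold change was -0.21 over the 10 genes and -0.0043 over all genes tested, and 6 of the 10 were on the lower side. The groups did not separate completely for any of the 10 genes, whereas 10.6% of all genes tested had groups that did not overlap. In tissue of the whole wall, fewer cells that carry an RNA and less of that RNA per cell cannot be told apart.

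Sox9 lies at chr11:112782224-112787760 of GRCm38 and is needed for Paneth cells as well as being active in crypt progenitors. Its level in Control-STAM-nonINS was 32.9, 32.3, 23.3 and 40.01 CPM in replicates 1 to 4. In Control-STAM-INS the lowest mouse had 17.3, the median was 22.3 and the highest mouse had 23.4 CPM. Replicate 3 of the mice without insulin lay among the insulin-treated mice, and the other 3 lay above all of them. The mean was 32.1 ± 6.86 CPM (SD, n = 4) without and 21.5 ± 2.42 CPM (SD, n = 6) with insulin, which is -0.58 on the log2 scale (SE 0.14, adjusted p = 0.0144, edgeR). Enumerating all arrangements of the mice gave an exact two-sided permutation p = 0.0381, where the smallest p that 4 against 6 mice allow is 0.00952. Without Control-STAM-nonINS replicate 4, the mouse lowest in epithelial genes, Sox9 differed by -0.45 and the call was lost (adjusted p = 0.0631, edgeR).

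Ephb2 spans chr4:136647539-136835988. In Control-STAM-nonINS its level was 59.1, 40.3, 46.9 and 57.5 CPM in replicates 1 to 4, and in Control-STAM-INS it ran from 33.1 over a median of 34.6 to 46.4 CPM. A single insulin-treated mouse reached into the range of the mice without insulin, and the other 5 lay below all of them. The mean fell from 50.9 ± 8.91 CPM (SD, n = 4) to 36.8 ± 5.03 CPM (SD, n = 6), a difference of -0.47 on the log2 scale (SE 0.11, adjusted p = 0.0127, edgeR, and p = 0.019 in the exact permutation test). When Control-STAM-nonINS replicate 1 was left out, Ephb2 differed by -0.39 and the call was lost (adjusted p = 0.0618, edgeR).

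Both calls were also lost when the 3 libraries lowest in epithelial genes were left out together, a choice made after seeing the data. The log2 fold changes were then -0.44 for Sox9 (adjusted p = 0.0783, edgeR) and -0.40 for Ephb2 (adjusted p = 0.0542, edgeR). When library sizes were scaled to the epithelial genes instead, both remained called, at -0.81 for Sox9 and -0.68 for Ephb2, on a scale that moved the median of all genes to -0.19. The part of epithelial content in these differences was not tested further.

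The feedback inhibitors did not pass the threshold in edgeR, while 2 of the 3 had an unadjusted p under 0.05, as did 25.4% of all genes tested. Rnf43 had 34.8, 23.4, 25.3 and 32.0 CPM in the mice without insulin and 18.5 to 26.8 CPM, with a median of 22.7, in the insulin-treated mice. Znrf3 had 11.9, 6.35, 9.90 and 11.2 CPM without insulin and 6.01 to 9.11 CPM, with a median of 7.09, with insulin. In both genes replicates 1 and 4 without insulin lay above all insulin-treated mice and replicate 2 lay within their range. The log2 fold changes were -0.32 for Rnf43 (SE 0.13, adjusted p = 0.107, edgeR) and -0.43 for Znrf3 (SE 0.16, adjusted p = 0.104, edgeR). Without Control-STAM-nonINS replicate 2, Znrf3 was called lower as well (adjusted p = 0.0169, edgeR). Axin2 differed in sign from these, with a log2 fold change of 0.11 and a 95% confidence interval from -0.44 to 0.67. Its 4 values without insulin, 56.6, 84.9, 55.1 and 89.3 CPM, spanned most of the range of the insulin-treated mice, which was 65.7 to 93.7 CPM.

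None of the 5 stem cell markers passed the threshold in edgeR, and 0 had an unadjusted p under 0.05. Lgr5, at chr10:115450311-115587780, had 22.5, 14.2, 14.0 and 18.2 CPM in Control-STAM-nonINS and 12.4 to 16.8 CPM, with a median of 13.4, in Control-STAM-INS. Replicates 1 and 4 without insulin were above all insulin-treated mice, and the other 2 were within their range. The log2 fold change of Lgr5 was -0.32 (SE 0.16, adjusted p = 0.199, edgeR). On the linear scale its 95% confidence interval ran from -36.3% to 0.142%, which spans differences from near 0 to a moderate fall.

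Olfm4 was on the higher side, with 330, 493, 378 and 237 CPM without insulin and 336 to 559 CPM, with a median of 422, with insulin. On the log2 scale Olfm4 differed by 0.31 (SE 0.18, adjusted p = 0.284, edgeR). The lowest value belonged to Control-STAM-nonINS replicate 4, the mouse lowest in epithelial genes. Smoc2 varied little among mice, with standard deviations of 8.61% of the mean without and 7.34% with insulin, and differed by -0.10 on the log2 scale (adjusted p = 0.441, edgeR). Ascl2 and Tnfrsf19 differed by 0.09 and 0.08 on the log2 scale, with standard errors of 0.26 and 0.15. The sign of the difference in Ascl2, Tnfrsf19 and Axin2 turned when libraries were scaled to epithelial genes.

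**Figure D2:**
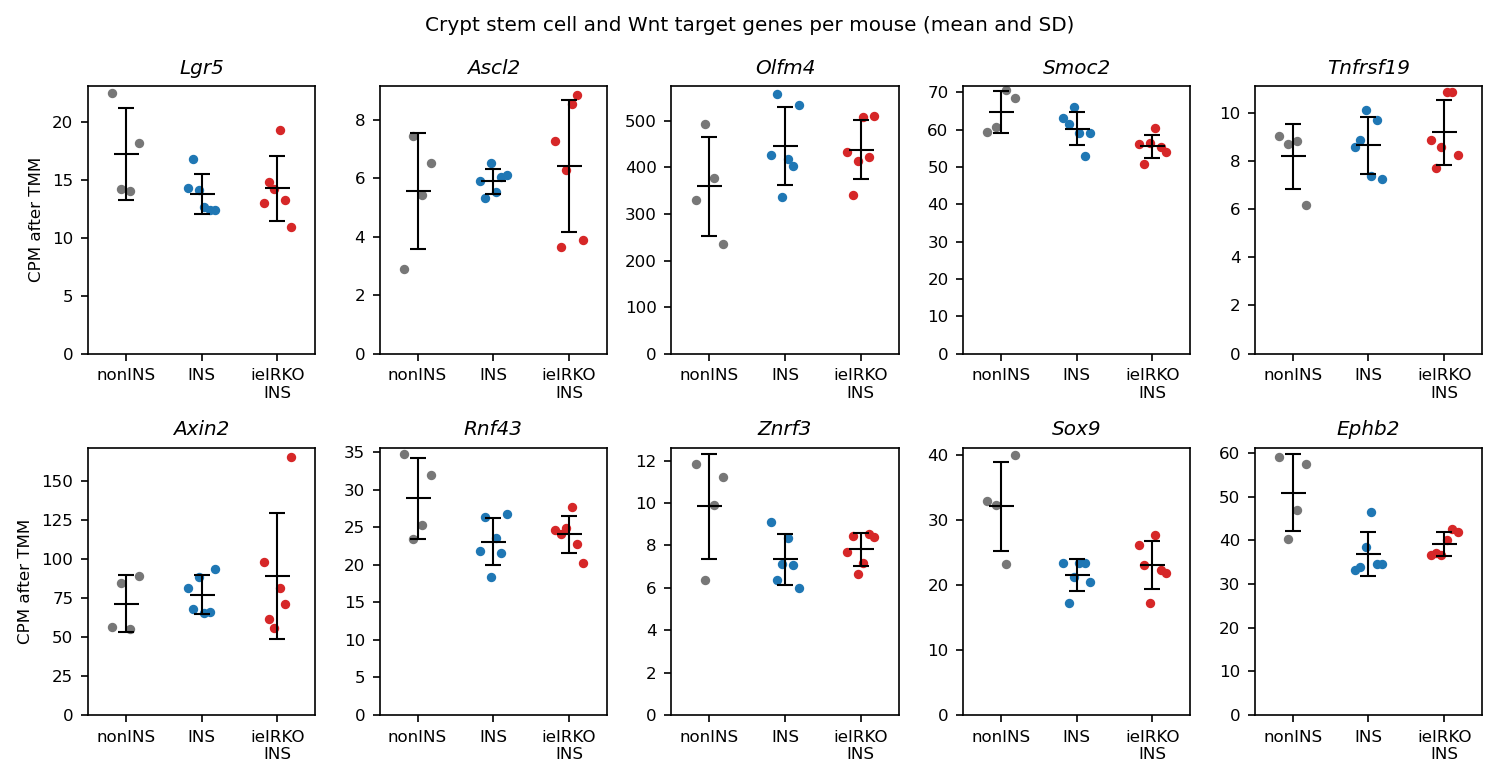
Level of each of the 10 genes in CPM after TMM normalization, with 1 point per mouse and the mean and SD of each group (nonINS, Control-STAM-nonINS, n = 4; INS, Control-STAM-INS, n = 6; ieIRKO INS, ieIRKO-STAM-INS, n = 6). Sox9 and Ephb2 were lower in most mice of both insulin-treated groups than in most mice without insulin, and 1 ieIRKO-STAM-INS mouse stands at 166 CPM of Axin2.

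The comparison of the libraries labelled ieIRKO-STAM-INS with Control-STAM-INS addressed what insulin treatment changes through the insulin receptor of the epithelium. None of the 10 genes was called by edgeR or by DESeq2, and 0 had an unadjusted p under 0.05 in edgeR. Of all genes tested, 0.223% were called here (34 by edgeR, 123 by DESeq2 and 90 by the likelihood ratio test) and 11.3% had an unadjusted p under 0.05. The log2 fold changes of the 10 genes lay between -0.12 and 0.21, with 8 on the higher and 2 on the lower side and a median of 0.09, against 0.02 over all genes. The 95% confidence intervals of the 10 genes reached from -0.36 to 0.70 on the log2 scale.

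The called genes of the insulin comparison were among those with narrower intervals. Ephb2 had 36.6 to 42.5 CPM, with a median of 38.6, in ieIRKO-STAM-INS, and its difference from Control-STAM-INS was 0.09 on the log2 scale with an interval of -0.12 to 0.30. Sox9 had 17.2 to 27.7 CPM, with a median of 22.7, and a difference of 0.10 with an interval of -0.17 to 0.37. Lgr5 had 10.9 to 19.3 CPM, with a median of 13.7, and a difference of 0.05 with an interval from -15.7% to 27.0% on the linear scale. In each of these genes the labelled knockout libraries overlapped the range of the insulin-treated controls, and so they did in the other 7, where 0.845% of all genes tested had groups that did not overlap.

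Olfm4 had 438 ± 64.1 CPM in the labelled knockout and 446 ± 84.7 CPM in its control (SD, n = 6 each), a log2 difference of -0.03. Smoc2 was lower by the most, at 55.5 ± 3.14 against 60.3 ± 4.42 CPM (SD, n = 6 each), a log2 fold change of -0.12 with an adjusted p of 0.547 in edgeR and p = 0.0563 in the exact permutation test. Axin2 was higher by the most on average, at 0.21, and this rested on 1 mouse. In ieIRKO-STAM-INS its level was 98.3, 61.5, 56.1, 81.7, 71.3 and 166 CPM in replicates 1 to 6, and without replicate 6 the log2 fold change was -0.07. Axin2 shares 209 bases of exon with Gm11670 on the opposite strand, and whether the counting used strand is not given in the sources used here. Olfm4 shares 153 bases of exon with Gm6999 on the same strand. Ascl2 spread widely within this group, with 3.64 and 3.88 CPM in replicates 2 and 6 and 6.28 to 8.86 CPM in the others, while all 6 Control-STAM-INS mice lay between 5.34 and 6.53 CPM.

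Paneth cells, the neighbours of the stem cells, were read beside the 10 genes. The sum of 5 Paneth cell genes other than alpha-defensins was 2226 to 3836 CPM in Control-STAM-nonINS, 2836 to 4696 CPM in Control-STAM-INS and 723 to 1341 CPM in ieIRKO-STAM-INS. Of these 5 genes, Lyz1, Ang4 and Itln1 fell in the labelled knockout libraries against Control-STAM-INS, where 0.223% of all genes were called, for example Lyz1, the lysozyme of Paneth cells, by 2.31 on the log2 scale (SE 0.18, adjusted p = 1.25e-06, edgeR). Lyz1 and Ang4 were called in all 16 fits that left out a library, and Itln1 in 7, and the call of Itln1 was also lost without a filter, with the replicate block and without the 2 libraries high in B cell genes. The sum of 5 genes of B and plasma cells was 1571 to 3111 CPM in ieIRKO-STAM-INS and 955 to 1540 CPM in Control-STAM-INS. Throughout, the 2 libraries named high in B cell genes are ieIRKO-STAM-INS replicates 2 and 3. In the sum given here, replicate 5 was the highest of that group and replicate 2 the lowest. The part of B and plasma cells in the levels of the 10 genes was not tested.

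**Figure D3:**
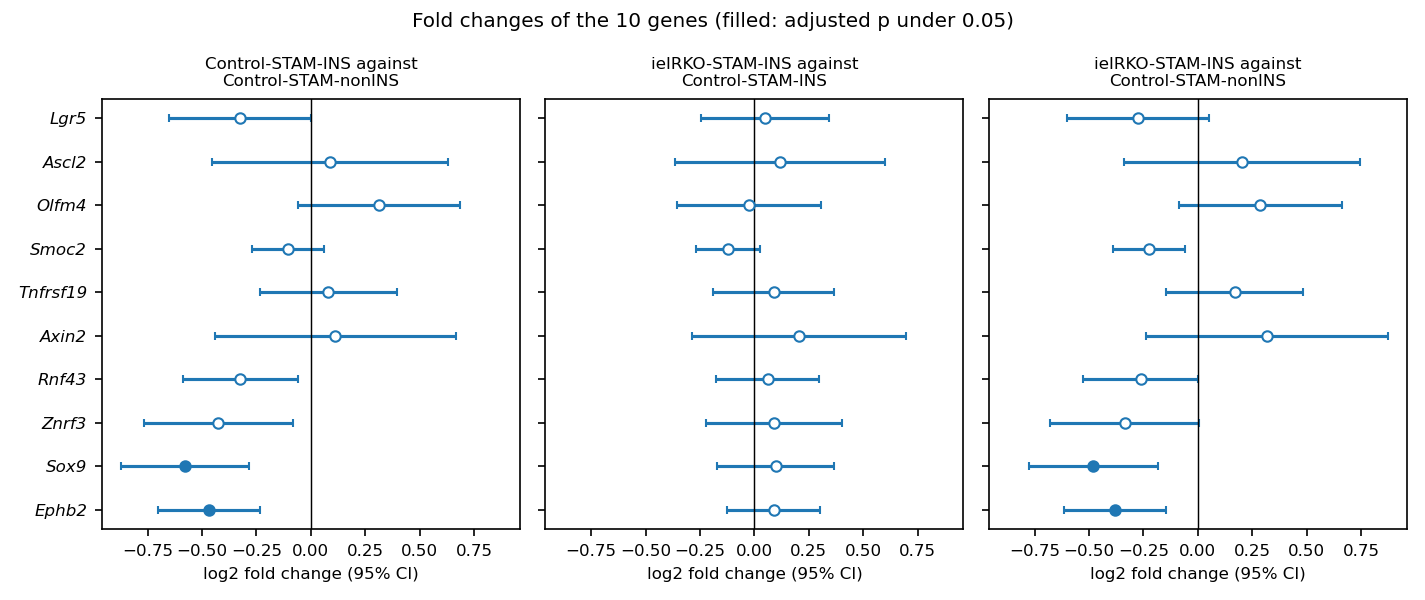
Log2 fold change of each of the 10 genes in 3 comparisons, with bars for the 95% confidence interval. Filled points are at an adjusted p under 0.05 in edgeR, namely Sox9 and Ephb2 against Control-STAM-nonINS, and none of the 10 genes is filled in the middle panel.

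Against Control-STAM-nonINS, the libraries labelled ieIRKO-STAM-INS gave a called fall of 2 of the 10 genes, again Sox9 and Ephb2, where 13.3% of all genes tested were called and 7.59% were called lower. This comparison shares its mice without insulin with the insulin comparison and is not independent of it. Sox9 was 23.0 ± 3.67 CPM (SD, n = 6) against 32.1 ± 6.86 (SD, n = 4), a log2 fold change of -0.48 (adjusted p = 0.0313, edgeR). Ephb2 was 39.1 ± 2.72 CPM (SD, n = 6) against 50.9 ± 8.91 (SD, n = 4), a log2 fold change of -0.38 (adjusted p = 0.0315, edgeR). In each gene 4 of the 6 mice lay below all mice without insulin, and none of the 10 genes had groups that did not overlap, as 8.56% of all genes tested did. These calls were close to the threshold, and both were lost when only these groups were fitted, at an adjusted p of 0.0849 for Sox9 and 0.0644 for Ephb2 (edgeR). Leaving out 1 library at a time kept Sox9 in 10 and Ephb2 in 12 of 16 fits.

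Smoc2 came next in this comparison, with 59.5, 60.6, 70.7 and 68.4 CPM without insulin and 50.8 to 60.4 CPM in ieIRKO-STAM-INS. On the log2 scale Smoc2 differed by -0.22 (SE 0.08, adjusted p = 0.0656, edgeR), with 5 of 6 mice below all mice without insulin, and DESeq2 called it (adjusted p = 0.0464). The other 7 genes were not called, at log2 fold changes from -0.34 for Znrf3 to 0.32 for Axin2.

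The pathway around the 10 genes was read from lists of its ligands, inhibitors, receptors, transducers and other targets. In these lists, 55 of 72 genes passed the filter, and with insulin in the control genotype 10 of the 55 were called, 9 lower and 1 higher, which is 18.2% beside the 10.5% of all genes tested. The median log2 fold change of the 55 genes was -0.02. Between the labelled knockout and Control-STAM-INS, 0 of the 55 were called by edgeR, and 8 of them had an unadjusted p under 0.05. Over all genes tested, these shares were 0.223% and 11.3%. Against Control-STAM-nonINS, the labelled knockout had 9 of 55 called, 7 lower and 2 higher, or 16.4% beside the 13.3% of all genes.

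At the level of ligands, 8 of 19 Wnt genes and 3 of 4 R-spondin genes were high enough to test. None of them was called with insulin by edgeR, and 2 had an unadjusted p under 0.05, as did 25.4% of all genes tested. Wnt6, another ligand, was 1.25 ± 0.35 CPM (SD, n = 6) with and 2.21 ± 0.47 CPM (SD, n = 4) without insulin (log2 fold change -0.84, adjusted p = 0.0622, edgeR). Wnt5a, a ligand of the mesenchyme, was 17.4 ± 1.82 CPM (SD, n = 6) with and 13.8 ± 1.74 CPM (SD, n = 4) without insulin (adjusted p = 0.0843, edgeR). In the labelled knockout against Control-STAM-nonINS it was called higher, by 0.38 on the log2 scale (adjusted p = 0.0462, edgeR). That call held in 4 of 16 fits that left out a library. It was lost under epithelial scaling, without a filter, with the replicate block and in the fit of only the groups compared. Wnt3, which Paneth cells supply to stem cells, was at 3.44 ± 0.83 against 2.79 ± 0.29 CPM, with a log2 fold change of 0.30 (adjusted p = 0.453, edgeR). Rspo3, the most abundant R-spondin here, was at 6.53 ± 0.85 against 6.30 ± 1.07 CPM (adjusted p = 0.895, edgeR).

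Of 7 secreted inhibitors tested, Notum and Frzb fell with insulin, where 10.5% of all genes were called and 6.76% were called lower. Notum, an enzyme that inactivates Wnt ligands by removing their lipid and is itself a Wnt target, had 13 to 33 counts in each library without insulin and 1 to 9 counts in each library with insulin, without overlap in CPM. On the log2 scale Notum fell by 2.06 (SE 0.47, adjusted p = 0.00997, edgeR), on counts so low that the size is uncertain. In the labelled knockout Notum had 1 to 10 counts. Frzb, a decoy receptor for Wnt ligands, was at 1.45 ± 0.43 against 2.94 ± 0.35 CPM (adjusted p = 0.0188, edgeR), on 14 to 39 against 32 to 74 counts per library, and was called in 14 of 16 fits that left out a library.

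Over all genes tested, 10.5% were called with insulin and 6.76% were called lower. Among 13 receptors tested, Lrp5 and Fzd4 fell, by 0.37 and 0.65 on the log2 scale. Both calls were near the threshold (adjusted p = 0.0383 and 0.0375, edgeR) and were lost in 7 and 8 of the 16 fits that left out a library. That of Fzd4 was also lost with the replicate block and without the 3 libraries lowest in epithelial genes, and that of Lrp5 without the 2 libraries high in B cell genes. Of 15 transducers, Dvl1, a relay of the receptor signal, fell by 0.38 (adjusted p = 0.00745, edgeR), and Bcl9l, a coactivator of beta-catenin, fell by 0.76 (SE 0.12, adjusted p = 0.000781, edgeR). Bcl9l was at 44.8 to 67.4 CPM in the mice without insulin and 29.6 to 33.9 CPM in Control-STAM-INS, without overlap. Ctnnb1, which encodes beta-catenin, was at 1011 ± 59.6 against 880 ± 161 CPM (adjusted p = 0.339, edgeR).

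Of 10 other Wnt target genes, 4 fell and 1 rose with insulin, where 10.5% of all genes were called and 6.76% were called lower. Ephb3, the partner of Ephb2 in crypt cell positioning, fell from 18.1 to 24.8 CPM over the mice without insulin to 10.6 to 16.1 CPM over Control-STAM-INS, a difference of -0.71 on the log2 scale (SE 0.14, adjusted p = 0.00407, edgeR). Unlike Ephb2, its groups did not overlap. Cd44, an adhesion receptor, fell by 0.51 (adjusted p = 0.00579, edgeR) and Myc, a growth regulator, by 0.79 (adjusted p = 0.00913, edgeR). Notum was the remaining fall, and Ccnd1, which encodes cyclin D1, rose by 0.60 (adjusted p = 0.0223, edgeR). The falls of Ephb3, Cd44, Myc and Notum were called in all 16 fits that left out a library, and the rise of Ccnd1 in 13. The call of Ccnd1 was also lost under epithelial scaling and with the replicate block. Cd44, Myc and Ccnd1 are also active in stromal and immune cells of the wall. Nkd1, a feedback inhibitor like Axin2, was at 17.6 ± 3.08 against 17.4 ± 3.80 CPM (adjusted p = 0.968, edgeR).

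Other genes known from crypt base or reserve stem cells moved in both directions. Of 14 tested, 6 fell and 2 rose with insulin, where 10.5% of all genes were called and 6.76% were called lower. Slc12a2, a chloride cotransporter enriched in crypt base cells, fell from 247 to 371 CPM over the mice without insulin to 157 to 207 CPM over Control-STAM-INS (log2 fold change -0.73, SE 0.12, adjusted p = 0.000919, edgeR). Kcnq1, a potassium channel, fell by 0.73 (adjusted p = 0.00138, edgeR), and Msi1, Mecom, Lrig1 and Hopx fell by 0.65, 0.57, 0.42 and 0.35 on the log2 scale. Slc14a1, a urea transporter, rose from 2 to 11 counts to 17 to 44 counts per library (adjusted p = 0.00756, edgeR), and Bmi1, a chromatin regulator, rose by 0.45 (adjusted p = 0.0391, edgeR). Of these 8, Slc12a2, Kcnq1 and Slc14a1 were called in each of the 16 fits that left out a library. Lrig1 was called in 15, Msi1 in 14, Mecom and Bmi1 in 9 and Hopx (adjusted p = 0.0474, edgeR) in only 4, and the call of Hopx was also lost under upper-quartile normalization, epithelial scaling, no filter and the replicate block. The call of Bmi1 was lost under epithelial scaling and in the fit of only the groups compared. Msi1, Mecom and Hopx were also not called without the 3 libraries lowest in epithelial genes, nor was Hopx without the 2 libraries high in B cell genes. In the labelled knockout against Control-STAM-INS, 0 of the 14 were called by edgeR and 4 had an unadjusted p under 0.05. Over all genes tested, these shares were 0.223% and 11.3%.

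The Notch and BMP lists together had 4 of 22 tested genes called with insulin, or 18.2% beside the 10.5% of all genes. Of 9 Notch pathway genes tested, Jag2, Atoh1 and Notch1 fell with insulin, led by Jag2 at -0.87 on the log2 scale (adjusted p = 0.00656, edgeR). Atoh1, the switch to the secretory lineage, was at 23.3 ± 4.10 against 34.4 ± 2.93 CPM (adjusted p = 0.0367, edgeR). Jag2 was called in all 16 fits that left out a library, Atoh1 in 9 and Notch1 in 2, and the calls of Atoh1 and Notch1 were also lost under upper-quartile normalization, with the replicate block and without either set of libraries (the 2 high in B cell genes or the 3 lowest in epithelial genes), and that of Notch1 also under epithelial scaling and in the fit of only the groups compared. Of 13 BMP pathway genes, Bmp7 alone was called, with a fall of 0.81 (adjusted p = 0.00916, edgeR), and its call was lost without the 3 libraries lowest in epithelial genes. Of 11 genes of dividing cells, the replication genes Mcm4 and Mcm5 rose, by 0.40 and 0.58 on the log2 scale, and 0 fell. Both calls were lost under epithelial scaling and that of Mcm4 also without the 3 libraries lowest in epithelial genes, and leaving out 1 library kept Mcm4 in 11 and Mcm5 in 14 of 16 fits. No gene of these 3 lists was called between the labelled knockout and Control-STAM-INS by edgeR, where 5 had an unadjusted p under 0.05. Over all genes tested, 0.223% were called there and 11.3% had an unadjusted p under 0.05.

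Markers of other cells were set beside these counts. With insulin, 1 of 7 genes shared by all epithelial cells was called (Krt18, lower) and 1 of 5 Paneth cell genes (Itln1, higher), where 10.5% of all genes were called. None was called by edgeR, and 5 had an unadjusted p under 0.05, among 8 enterocyte, 6 goblet cell, 5 smooth muscle, 5 fibroblast, 4 enteric glia, 5 B and plasma cell and 4 ileal enterocyte genes. Over all genes tested, 25.4% had an unadjusted p under 0.05 in this comparison. Sis, the sucrase-isomaltase of enterocytes, was at 2543 ± 944 CPM (SD, n = 6) in Control-STAM-INS and 5242 ± 330 CPM (SD, n = 4) without insulin. Its groups did not overlap, the log2 fold change was -1.04 (adjusted p = 0.104, edgeR), and it was called in 2 of 16 fits that left out a library. Mzb1 of the B and plasma cell list was at 16.4 ± 3.09 CPM (SD, n = 6) with and 10.3 ± 3.80 CPM (SD, n = 4) without insulin. It was not called, but was called in 2 of 16 fits that left out a library. Fcgbp of goblet cells, Tagln of smooth muscle and Gfap of glia had log2 differences of 0.30, -0.30 and -0.57, not called, and Gata4 of the proximal intestine one of 0.03. Smooth muscle genes summed to 2506 to 2933 CPM without insulin and 2077 to 3206 CPM in Control-STAM-INS, and fibroblast genes to 338 to 477 and 368 to 420 CPM. No gene of these lists was at 0 in every library of a group.

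Against Control-STAM-nonINS, where 13.3% of all genes were called, the labelled knockout had higher Mzb1, Jchain and Cd79a of the B and plasma cell list, by 1.28, 0.87 and 1.86 on the log2 scale. Mzb1 was called in all 16 fits that left out a library, Jchain in 12 and Cd79a in 3. The fibroblast gene Dcn and the ileal enterocyte gene Fabp6 were lower by log2 differences of -0.48 and -0.59, and were called in 13 and 10 of those fits. Of 14 genes of the stem cell list, 3 were called higher (Cdca7, Slc14a1 and Bmi1) and 5 lower (Slc12a2, Kcnq1, Mecom, Msi1 and Lrig1). Of 11 genes of dividing cells, 3 were called higher and 0 lower, with Mcm4 at 0.62 and Mcm5 at 0.79. Cdca7 and the replication gene Mcm2 were higher by 0.41 and 0.51, each called in 14 of the 16 fits, against 10 for Msi1 and 4 for Lrig1. With only the groups compared, Jchain, Cd79a, Dcn, Fabp6, Cdca7, Msi1, Lrig1 and Mcm2 were not called. The part of these cells in the levels of the 10 genes was not tested.

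**Figure D4:**
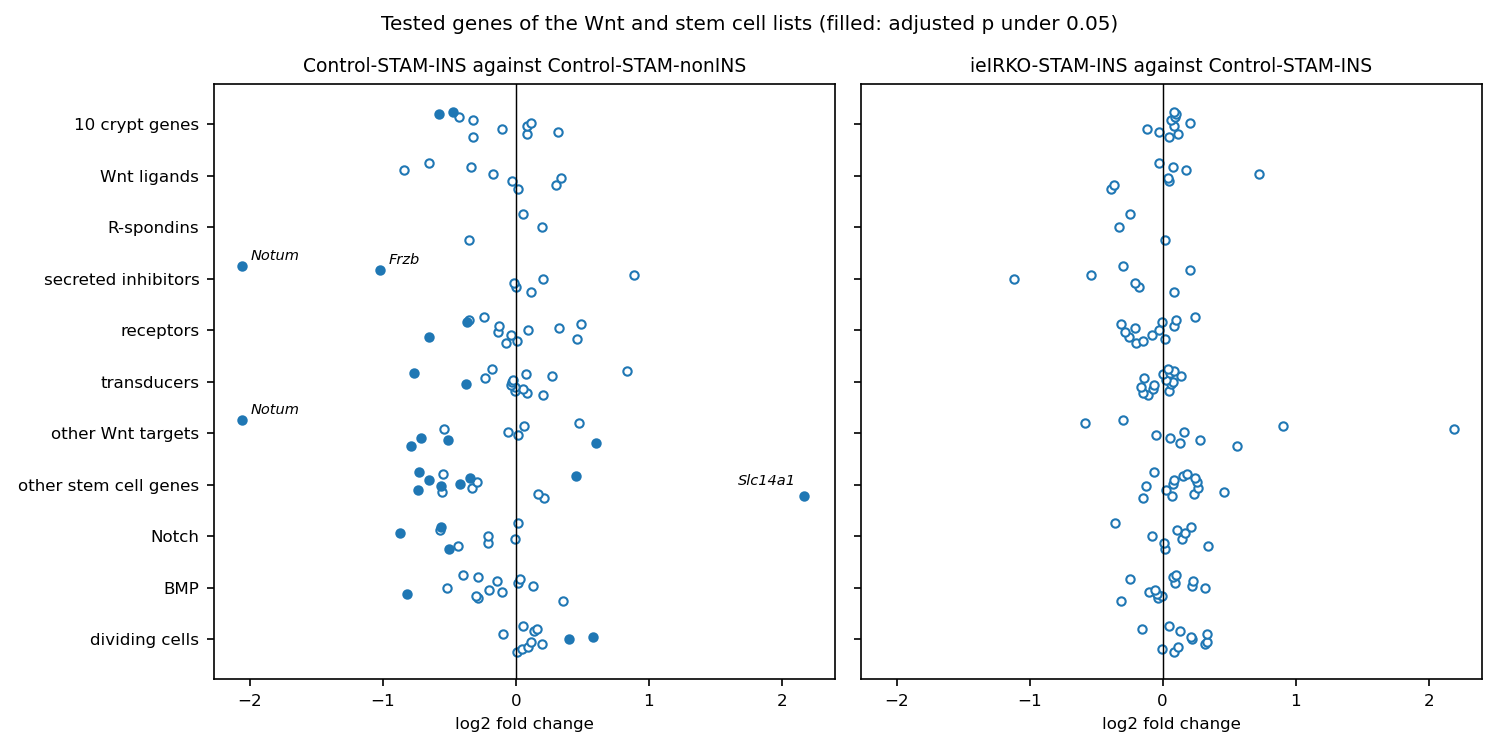
Log2 fold change of each tested gene of the Wnt, stem cell, Notch, BMP and dividing cell lists, with 1 point per gene and filled points at an adjusted p under 0.05 in edgeR. With insulin (left) 2 of the 10 crypt genes and 10 of the 55 other Wnt genes are filled, and Notum is drawn in both lists that hold it, whereas none is filled in the labelled knockout against its insulin-treated control (right).

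The 10 genes varied little together among mice of the same group. Over the 45 pairs, Pearson's r of the deviations from the group means (16 libraries) ran from -0.62 to 0.69 with a median of 0.06, and 0 pairs passed after Benjamini-Hochberg adjustment of permutation p-values. Lgr5 and Rnf43 were the closest pair, with r = 0.69 (permutation p = 0.0104, adjusted p = 0.469) and Spearman's rho = 0.62 (permutation p = 0.0312, adjusted p = 0.864), and r = 0.54 without the 2 libraries farthest from the median of Lgr5. Sox9 and Ephb2 had r = 0.33 (permutation p = 0.326, adjusted p = 0.893) and rho = 0.27 (permutation p = 0.378, adjusted p = 0.896), and r = 0.24 without the 2 libraries farthest in Sox9. Of 50 relations between the 10 genes and 5 summed cell type lists, 0 passed the adjustment. The strongest positive one was that of Olfm4 with the epithelial genes, with r = 0.70 (permutation p = 0.0114, adjusted p = 0.286) and rho = 0.67 (permutation p = 0.00413, adjusted p = 0.131), which was r = 0.42 without the 2 libraries farthest in epithelial genes. The strongest negative one was that of Axin2 with the genes of dividing cells, with r = -0.68 (permutation p = 0.0102, adjusted p = 0.286) and rho = -0.70 (permutation p = 0.00526, adjusted p = 0.131), which was r = -0.54 without the 2 libraries farthest in those genes.

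Outside the 10 genes, the gene whose level most resembled that of Lgr5 over all 16 libraries was Zfp36l2, with Pearson's r = 0.90 among 15257 genes searched. Rbm33, Tnfaip8l1, A130010J15Rik and Ubxn7 followed, with r from 0.81 to 0.84. The mean standardized level of the 10 genes was most resembled by Clmn, with r = 0.91, and then by 5330417C22Rik, 1110038B12Rik, Fam129b and Auh, with r from 0.86 to 0.91. These values hold differences between groups and shared library effects as well as variation among mice, and the genes are the highest of a search.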

How the data were processed

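Total RNA of ileal whole wall was prepared with a directional kit and sequenced, and the authors aligned reads to GRCm38 in CLC Genomics Workbench, release 21.0.3. The deposited values are raw read counts per gene, 1 table per mouse. The annotation and strand setting are not given in the sources used here. In R 4.3.3, a single edgeR 4.0.16 model (with limma 3.58.1) was fitted to the counts of 16 libraries (filterByExpr with a minimum count of 10, TMM, robust quasi-likelihood test, Benjamini-Hochberg adjustment over 15267 genes, threshold 0.05). Standard errors were derived from the F statistic, and 95% intervals use the t quantile at the degrees of freedom of that test. Exact permutation tests on log2 CPM (prior count 2) were two-sided, over all arrangements. Exon lengths were taken from GENCODE models on GRCm38, matched by name (97.5% of names matched). Correlations used scipy 1.17.1, and figures matplotlib 3.10.9.

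The 10 genes and the lists were chosen with earlier results of these data known. Besides the 10 genes and Insr, genes were named where a list member was called or had its list's smallest p, or ranked among the 5 most like Lgr5 or the mean of the 10. Wnt3, Wnt6, Ctnnb1 and Nkd1 were added after their values were seen. Alternatives were DESeq2 1.42.0, other normalizations and filters, the likelihood ratio test, fits of only the groups compared, replicate blocks and leaving out libraries. Replicates are separate mice by their labels, and no pair of libraries of the same group held the same counts.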

Additional observations from a re-analysis of the deposited data

Results flagged for a closer look

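Over 15 measures in 3 groups, 2 of 45 groups of values had a library standing apart from the others by Dixon's criterion, where chance gives about 1 in 20. Tnfrsf19 was low in Control-STAM-nonINS replicate 4, at 6.17 CPM with the next mouse at 8.70, and this gap was 0.882 of the group's range. That mouse was also the lowest in epithelial genes, at 9235 CPM. Without it the log2 fold change of Tnfrsf19 with insulin was -0.04 in place of 0.08. The summed level of B and plasma cell genes was high in ieIRKO-STAM-INS replicate 5, at 3111 CPM with the next mouse at 2115, a gap of 0.647 of the range. Replicate 5 was kept in the fits without the 2 libraries named high in B cell genes, which were replicates 2 and 3. The part of the cell content of the 2 flagged libraries in the levels was not tested.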

How the results depend on the processing

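Sox9 and Ephb2 were the genes called with insulin under DESeq2, upper-quartile and epithelial scaling, both filters, the likelihood ratio test and the fit of only the groups compared. Leaving out 1 library gave 1 to 3 called genes with insulin, 0 in the labelled knockout against Control-STAM-INS and 0 to 2 in the labelled knockout against Control-STAM-nonINS. Without the 3 libraries lowest in epithelial genes the counts were 0, 0 and 0. The labelled knockout against Control-STAM-nonINS gave 1 called gene under upper-quartile normalization. It gave 0 under epithelial scaling, with only the groups compared and without knockout replicates 2 and 3, named high in B cell genes. The log2 fold changes of Sox9 and Ephb2 were then -0.60 and -0.48, -0.48 and -0.38, and -0.39 and -0.34. Over all genes this comparison called 2036, and 976 to 1270 under epithelial scaling, with only the groups compared, without Control-STAM-nonINS replicate 1 and without either set of libraries. The cause was not tested.

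Deviations of same-numbered libraries correlated at -0.09 to 0.18, over 0.1 in 4 of 14 pairs. Libraries with different numbers were not compared, so these values do not decide whether replicate numbers pair the mice. With the replicate number as a block, the called genes numbered 2, 0 and 2, and over all genes 1397 with insulin, 30 and 1615.

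Signs turned for values that were not called. Under epithelial scaling the log2 fold changes with insulin were -0.12 for Ascl2, -0.065 for Tnfrsf19 and -0.12 for Axin2, and that of Olfm4 in the labelled knockout against Control-STAM-INS was 0.074. Without the 2 libraries high in B cell genes Olfm4 was at 0.062. Without the 3 libraries lowest in epithelial genes it was at 0.061 and Tnfrsf19 with insulin at -0.028. Leaving out 1 library gave, with insulin, -0.13 to 0.26 for Ascl2 and -0.038 to 0.13 for Tnfrsf19. In the labelled knockout against Control-STAM-INS it gave -0.00018 to 0.24 for Ascl2, -0.10 to 0.049 for Olfm4, -0.057 to 0.12 for Lgr5, -0.067 to 0.31 for Axin2 and -0.0026 to 0.16 for Insr. In the labelled knockout against Control-STAM-nonINS it gave -0.0073 to 0.38 for Ascl2.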
